A study of Mus musculus with 6 samples.

Results

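Chromatin remodellers and histone methylation enzymes were followed in the livers of mice fed a high-fat diet, through every row whose gene symbol begins with Arid, Chd, Kmt2, Kdm, Setd or Smarc and goes on with a digit, or a letter and a digit, as in Chd2 or Smarca4. Members were chosen by gene symbol alone, and no count entered the rule, but these families were proposed with results of the same comparison known. All fold changes, calls and adjusted p-values below are therefore a description of these libraries and support nothing about the families as a whole. The rule took 67 of 23282 rows, and 62 of the 67 had enough counts to be tested. It took 2 rows by name only. Smarca5-ps is a pseudogene of Smarca5, and Chd3os is a symbol that RefSeq gives as a synonym of Rnf227.

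The 3 atractylodin libraries and the 3 vehicle libraries came from livers of male C57BL/6N mice (strain C57BL/6 in the sample labels) that began the diet at 8 weeks of age and ate it for 12 weeks. Atractylodin, a compound of Atractylodes plants, was given by mouth at 10 mg/kg on 5 days per week over the last 4 weeks, and the vehicle mice ate the same diet without it. No animals on a normal diet were compared, so every value sets atractylodin on the high-fat diet against vehicle on the high-fat diet. The labels do not say that each library is a separate animal, and p-values measure only the spread between libraries, which may be technical.

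Remodellers of the SWI/SNF, ISWI and CHD families use ATP to slide, evict or space nucleosomes, and so set which stretches of DNA other proteins can reach. Methyltransferases with a SET domain write methyl groups on histone lysines, and demethylases of the KDM families remove them. ARID proteins share a DNA-binding domain that several large chromatin complexes carry. In the liver these enzymes act with nuclear receptors and other transcription factors on metabolic genes.

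RNA was counted by QuantSeq, which reads the 3' end of each transcript. Library totals were 9871762 to 12565393 counts with atractylodin, against 1831461, 11120089 and 12111553 counts in vehicle 1, 2 and 3. A floor of 3 counts corresponded in vehicle 1 to 1.64 CPM, a count divided by the size of its library, and at most 0.304 CPM in the other libraries, so members of a few CPM were measured least well in vehicle 1. CPM values below are scaled by TMM, the trimmed mean of M-values, and are not divided by transcript length. They compare libraries for a gene, and are not taken as amounts of RNA to compare between genes. These are whole livers, in which fewer cells of a type and less RNA per cell cannot be told apart.

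Summed over all 67 members, the level was 2706, 2605 and 2674 CPM in atractylodin 1, 2 and 3, against 2304, 2337 and 2385 CPM in vehicle 1, 2 and 3. Every atractylodin library lay above every vehicle library. The mean was 2662 ± 51.8 CPM with atractylodin and 2342 ± 40.3 CPM with vehicle (SD, n = 3 each), a ratio of 1.14. The 9 members called higher, named below, summed to 758 ± 15.3 CPM with atractylodin and 534 ± 11.2 CPM with vehicle (SD, n = 3 each). These 9, picked for being higher, held 225 CPM of the difference of 319 CPM between the group means. With total counts as library size, the difference between the group means shrank to 177 CPM, against 319 CPM after TMM scaling.

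Of the 62 tested members, 9 were called higher with atractylodin and 0 lower by edgeR's quasi-likelihood test, at an adjusted p of 0.05 over all 12505 tested rows. Over all tested rows 7.25% were called, 3.92% as higher and 3.33% as lower, and as the family was proposed from this comparison nothing is read from the difference. The 490 higher and 416 lower rows became 312 and 707 with total counts as library size. Of the members, 13 had a higher and 1 a lower estimate with an unadjusted p under 0.05, against 1391 and 1302 of all 12505 tested rows. DESeq2 called 7 members higher and 0 lower, and 432 and 374 over all rows. The 9 were the CHD remodeller genes Chd1, Chd2 and Chd7, the ATPase genes Smarca2 and Smarca5, the ARID genes Arid4a, Arid4b and Arid5b, and the SET domain gene Setd4. Fitted estimates were above 0 for 48 members and below 0 for 14, and the median log2 fold change was 0.15, against -0.0015 over all tested rows. For Smarcd3, Chd3os and Arid3b, all at under 5 CPM, the estimate was above 0 while the mean CPM was lower with atractylodin. Total counts as library size gave 38 estimates above 0 and 24 below, with a median of 0.06 for the members and -0.09 for all rows. In 18 members every atractylodin library lay above every vehicle library, and in 3 every one lay below. The same held for 13.5% and 12.6% of all tested rows. Without vehicle 1, the shallowest library, 5 members were called higher and 0 lower.

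**Figure D1:**
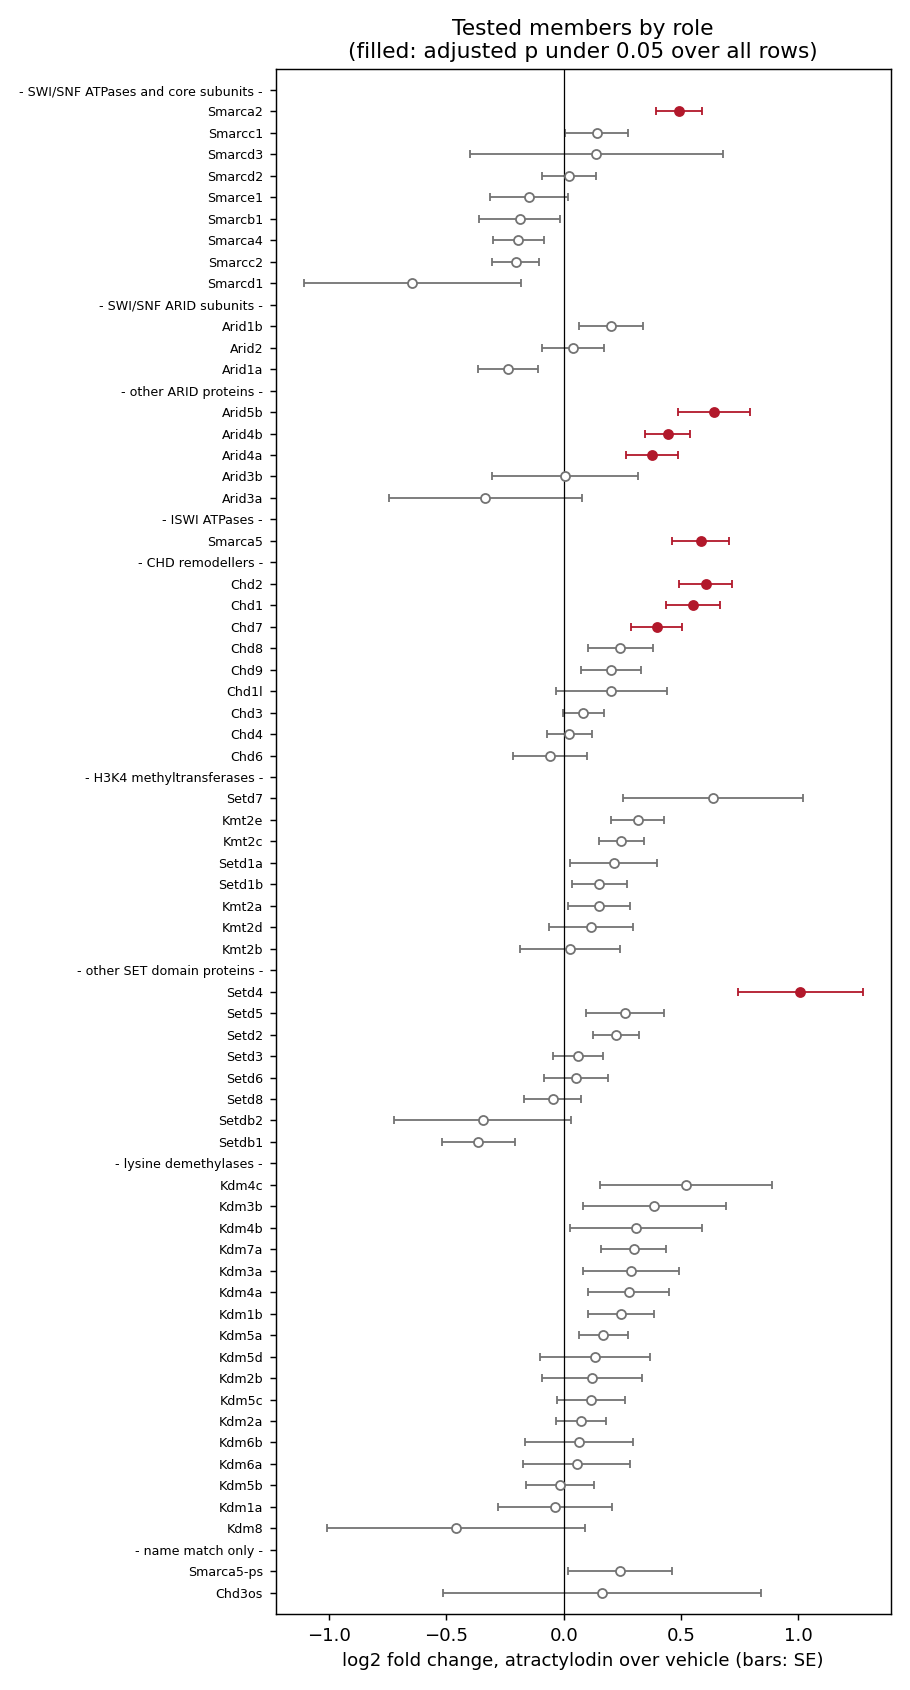
Log2 fold change of each of the 62 tested members, atractylodin over vehicle, with its SE, grouped by role down the page; filled red points passed an adjusted p of 0.05 over all rows. The 9 filled points all lie to the right of 0, from 0.38 for Arid4a to 1.01 for Setd4.

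Chd1 and Chd2 encode closely related remodellers, of which CHD1 binds methylated histone H3 lysine 4 through its chromodomains. Chd2 stood at 62.5, 60.9 and 59.7 CPM in atractylodin 1, 2 and 3, against 42.5, 43.0 and 35.7 CPM in vehicle 1, 2 and 3. It rose 1.52-fold (log2 0.61 ± 0.11 SE, adjusted p = 0.00304), with atractylodin libraries close together and vehicle 3 the lowest library. Chd1 stood at 71.3, 57.7 and 64.4 CPM with atractylodin, against 40.4, 47.3 and 42.8 CPM with vehicle. It rose 1.47-fold (log2 0.55 ± 0.12 SE, adjusted p = 0.00619), and the groups did not overlap. Chd2 lies on GRCm38 chromosome 7, 73426638 to 73541830, on the minus strand, and Chd1 on chromosome 17, 15704967 to 15772610, on the plus strand. The Chd2 locus contains the same-strand gene 1810026B05Rik, which had 18.9 ± 2.24 CPM with atractylodin and 13.5 ± 2.79 CPM with vehicle (SD, n = 3 each, adjusted p = 0.155), so part of the reads at this locus may belong to either gene.

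Chd7 encodes the remodeller that is mutated in CHARGE syndrome in humans, and lies on GRCm38 chromosome 4, 8690406 to 8867659, on the plus strand. It stood at 70.3, 72.4 and 65.3 CPM in the atractylodin libraries, against 54.9, 47.5 and 56.3 CPM in the vehicle libraries, a rise of 1.32-fold (adjusted p = 0.0316). The groups did not overlap, but of the 6 leave-one-out fits only the fit without atractylodin 3 kept the call. The other CHD genes did not pass. Chd3 and Chd4 encode the alternative ATPases of the NuRD deacetylase complex. Chd3 averaged 146 ± 3.37 CPM with atractylodin and 137 ± 5.47 CPM with vehicle (SD, n = 3 each, adjusted p = 0.637), and Chd4 averaged 109 ± 5.04 and 108 ± 9.49 CPM in the same order (adjusted p = 0.915). The estimate for Chd4 turned below 0 with total counts as library size and without atractylodin 1 or vehicle 2. Chd6, Chd8, Chd9 and the poly(ADP-ribose)-dependent remodeller gene Chd1l had log2 fold changes of -0.06, 0.24, 0.20 and 0.20. Of 9 tested CHD genes, 3 rose and 6 did not pass in edgeR. None of those 6 had an unadjusted p under 0.05, and DESeq2 called Chd1 and Chd2 higher and no CHD gene lower. The summed raw counts of Chd1 and Chd2 were 0.520, 0.459 and 0.501 of those of Chd3 and Chd4 in atractylodin 1, 2 and 3, against 0.327, 0.390 and 0.314 in vehicle 1, 2 and 3. A ratio taken inside a library does not depend on how libraries are scaled, and this pair of sums was picked after the values were seen.

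**Figure D2:**
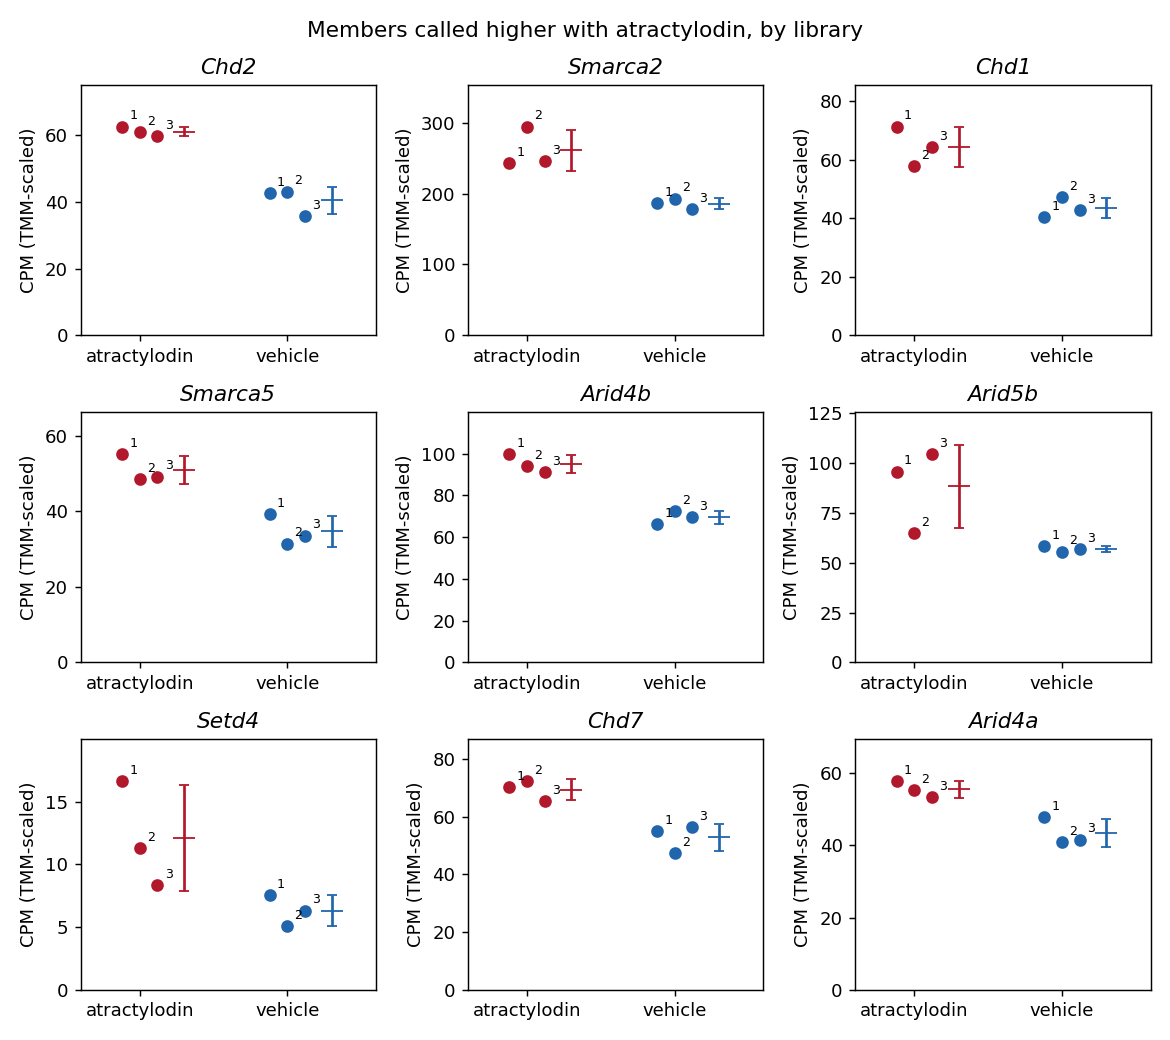
CPM of each of the 9 members called higher, by library (points, numbered by replicate), with the mean and SD of each group beside them; atractylodin is on the left of each panel. No panel shows an overlap between groups, the narrowest gap being that of Setd4, with 8.35 CPM in atractylodin 3 and 7.54 CPM in vehicle 1.

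SMARCA2 (BRM) and SMARCA4 (BRG1) are the alternative ATPases of SWI/SNF complexes, and SMARCA5 (SNF2H) is the ATPase of most ISWI complexes. Smarca2 stood at 243, 294 and 246 CPM in atractylodin 1, 2 and 3, against 186, 193 and 178 CPM in vehicle 1, 2 and 3. It rose 1.41-fold (log2 0.49 ± 0.10 SE, adjusted p = 0.00434), with atractylodin 2 the highest library. Smarca4 stood at 78.7, 61.7 and 74.8 CPM with atractylodin, against 86.1, 80.1 and 81.2 CPM with vehicle. Its log2 fold change was -0.19 ± 0.11 (SE) and did not pass (adjusted p = 0.317), although each atractylodin library lay below each vehicle library. The raw count of Smarca2 was 3.09, 4.77 and 3.29 times that of Smarca4 in atractylodin 1, 2 and 3, against 2.16, 2.41 and 2.20 times in vehicle 1, 2 and 3. This ratio, also picked after its values were seen, averaged 3.72 ± 0.919 with atractylodin and 2.26 ± 0.134 with vehicle (SD, n = 3 each) and carries no test. Smarca5 stood at 55.2, 48.6 and 49.2 CPM with atractylodin, against 39.3, 31.4 and 33.6 CPM with vehicle, and it rose (log2 0.59 ± 0.12 SE, adjusted p = 0.00619) with no overlap between groups. Its pseudogene row Smarca5-ps had 8.18 ± 0.255 CPM with atractylodin and 7.04 ± 0.433 CPM with vehicle (SD, n = 3 each, adjusted p = 0.585), and reads of the 2 rows may have been shared in counting. On GRCm38, Smarca2 lies on chromosome 19, 26605050 to 26778322, on the plus strand, and Smarca5 on chromosome 8, 80698507 to 80739497, on the minus strand.

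**Figure D3:**
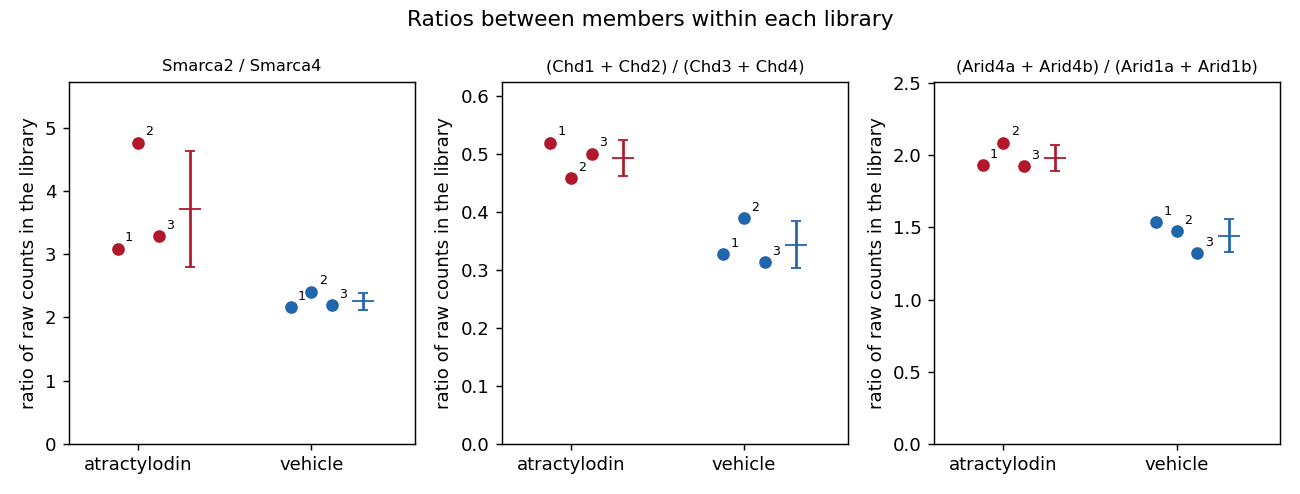
Ratios of raw counts between members within each library (points, numbered by replicate), with the mean and SD of each group, atractylodin on the left. The Smarca2 to Smarca4 ratio was 3.09 to 4.77 in atractylodin libraries and 2.16 to 2.41 in vehicle libraries, and the groups are also apart in the other 2 panels. Every panel sets members called higher over members not called, so the groups lie apart in part through that choice. Transcripts of the genes on top of each ratio have a lower GC content than those below, and the part of this in the ratios was not tested.

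The windows from 250 bases before to 50 bases after the annotated start of 4 members are shown because they set called members beside the paralog Smarca4, which was not called. They are RefSeq promoters on GRCm38.p6, written 5' to 3' on the strand of the gene. Capitals mark matches, on either strand, to CGGAAG (the core of ETS factor sites), CCAAT (bound by NF-Y) and GCATGCGC (bound by NRF1). Smarca2 is at chr19:26604910-26605209 on the plus strand, Smarca4 at chr9:21615919-21616218 on the plus strand, Smarca5 at chr8:80739410-80739709 on the minus strand and Arid4b at chr13:14063534-14063833 on the plus strand.
Smarca2: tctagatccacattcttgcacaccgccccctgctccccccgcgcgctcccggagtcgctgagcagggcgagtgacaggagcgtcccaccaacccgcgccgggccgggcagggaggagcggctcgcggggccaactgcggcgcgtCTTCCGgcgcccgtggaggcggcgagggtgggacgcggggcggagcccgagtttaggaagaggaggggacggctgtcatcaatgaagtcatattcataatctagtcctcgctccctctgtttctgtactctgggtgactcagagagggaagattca
Smarca4: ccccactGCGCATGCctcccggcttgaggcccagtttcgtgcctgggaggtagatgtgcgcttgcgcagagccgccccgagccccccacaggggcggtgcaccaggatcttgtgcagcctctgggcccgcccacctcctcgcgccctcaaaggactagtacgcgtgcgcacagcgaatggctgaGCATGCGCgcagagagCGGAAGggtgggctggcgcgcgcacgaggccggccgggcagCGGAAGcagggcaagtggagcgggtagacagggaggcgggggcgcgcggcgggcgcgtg
Smarca5: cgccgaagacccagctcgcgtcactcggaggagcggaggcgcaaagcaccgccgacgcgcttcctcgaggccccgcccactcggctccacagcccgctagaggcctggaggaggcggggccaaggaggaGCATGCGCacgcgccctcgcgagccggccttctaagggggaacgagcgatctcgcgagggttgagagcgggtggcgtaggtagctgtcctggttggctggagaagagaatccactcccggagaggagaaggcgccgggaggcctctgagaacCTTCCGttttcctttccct
Arid4b: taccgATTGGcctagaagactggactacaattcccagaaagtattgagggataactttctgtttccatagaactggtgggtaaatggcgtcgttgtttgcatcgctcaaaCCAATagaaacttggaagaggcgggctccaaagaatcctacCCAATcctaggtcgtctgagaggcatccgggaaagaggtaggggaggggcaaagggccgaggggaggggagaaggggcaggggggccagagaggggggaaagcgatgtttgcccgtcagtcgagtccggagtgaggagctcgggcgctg

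The Smarca2 window holds 1 CGGAAG match, the Smarca5 window holds 1 CGGAAG and 1 GCATGCGC match, the Smarca4 window holds 2 of each, and the Arid4b window holds 3 CCAAT matches. RefSeq windows were at hand for 49 members, with 63 windows in all, including those of 5 of the 9 called members. CGGAAG was in 3 of the 5 windows of called members, in 30.2% of all member windows and in 29.2% of 12099 windows of tested genes. CCAAT was in 2 of the 5, in 38.1% and in 37.4%, and GCATGCGC was in 1 of the 5, in 6.35% and in 5%. Of the further motifs searched on both strands, CACGTG, the E-box, was in 0 of the 5 windows, in 3.17% of member windows and in 9.84% of all windows. The cyclic AMP response element TGACGTCA was in 0 of the 5, in 0% and in 2.89%. TATAAA, the core of the TATA box, was in 1 of the 5, that of Arid5b, in 4.76% and in 7.82%. A loose glucocorticoid receptor site, ACANNNTGT, was in 0 of the 5, in 0% and in 4.54%. A match describes the letters of the window and does not show binding. Member windows had a median GC content of 64.7%, against 60.3% over all windows.

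Among the other subunits of SWI/SNF no member was called. Smarcc2, encoding a scaffold subunit, had 58.7, 56.1 and 57.5 CPM in the atractylodin libraries, against 68.4, 63.0 and 67.9 CPM in the vehicle libraries (log2 -0.20 ± 0.10 SE, adjusted p = 0.250). Smarcb1, encoding a core subunit that is lost in rhabdoid tumours in humans, averaged 12.6 ± 0.703 CPM with atractylodin and 14.4 ± 0.551 CPM with vehicle (SD, n = 3 each, adjusted p = 0.584). These 2 genes and Smarca4 were the 3 members in which every atractylodin library lay below every vehicle library. Smarcd1 had the most negative log2 fold change among the tested members, -0.65 ± 0.46 (SE, adjusted p = 0.458), at 1.90 ± 0.872 CPM with atractylodin and 3.11 ± 1.08 CPM with vehicle (SD, n = 3 each), resting on 7 counts in vehicle 1. Smarcc1, Smarcd2, Smarcd3 and Smarce1, which encode further core subunits, had log2 fold changes of 0.14, 0.02, 0.14 and -0.15. For Smarcd3 the mean CPM ran the other way, at 1.58 ± 0.636 with atractylodin and 1.70 ± 0.877 with vehicle (SD, n = 3 each). The median log2 fold change over the 9 ATPase and core subunit genes was -0.15 and was also below 0 with RLE, upper quartile and total count scaling, at -0.23 with total counts and -0.08 without atractylodin 3. Arid1a, encoding the defining ARID subunit of the canonical complex, averaged 41.9 ± 6.59 CPM with atractylodin and 48.7 ± 4.70 CPM with vehicle, and its paralog Arid1b averaged 34.2 ± 4.75 and 29.8 ± 1.22 CPM in the same order (SD, n = 3 each, adjusted p = 0.309 and 0.419). Arid2, the ARID subunit of the PBAF form, had a log2 fold change of 0.04, which was -0.04 with total counts as library size. None of these 3 ARID subunit genes had an unadjusted p under 0.05, and DESeq2 called none.

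ARID4A and ARID4B bind the retinoblastoma protein and belong to SIN3 deacetylase complexes. Arid4b stood at 99.9, 94.2 and 91.2 CPM in atractylodin 1, 2 and 3, against 66.2, 72.5 and 69.8 CPM in vehicle 1, 2 and 3. It rose 1.36-fold (log2 0.44 ± 0.10 SE, adjusted p = 0.00782), and the groups were well apart. It lies on GRCm38 chromosome 13, 14063232 to 14199603, where Ggps1 overlaps it on the opposite strand. Ggps1 also rose, with 10.3 ± 1.45 CPM with atractylodin and 5.56 ± 1.24 CPM with vehicle (SD, n = 3 each, adjusted p = 0.0430), and the strand setting of the counting is not given in the sources used here. Arid4a, on chromosome 12, 71015990 to 71098592, on the plus strand, stood at 57.9, 55.4 and 53.4 CPM with atractylodin, against 47.9, 40.9 and 41.6 CPM with vehicle. It rose 1.30-fold (adjusted p = 0.0463), the weakest of the 9 calls, and none of the 6 leave-one-out fits kept it (adjusted p = 0.0566 to 0.181). It was not kept either with transcript GC content as an offset (adjusted p = 0.0983).

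ARID5B is a DNA-binding protein that partners with the demethylase PHF2, and its gene lies on GRCm38 chromosome 10, 68092520 to 68278740, on the minus strand. Arid5b stood at 95.7, 64.8 and 104.6 CPM in atractylodin 1, 2 and 3, against 58.1, 55.5 and 56.9 CPM in vehicle 1, 2 and 3. It rose 1.56-fold (log2 0.64 ± 0.15 SE, adjusted p = 0.0263), but atractylodin 2 was much closer to the vehicle libraries than the other atractylodin libraries were. The call was lost without atractylodin 1 or any single vehicle library, with an adjusted p of up to 0.110. Kdm4a, a demethylase gene, had the same order within the atractylodin group, at 78.4, 47.8 and 78.6 CPM, against 56.5, 55.0 and 57.6 CPM with vehicle, and did not pass (adjusted p = 0.401). Without atractylodin 2, Kdm4a was called higher. Of the remaining ARID genes, Arid3a and Arid3b did not pass at log2 fold changes of -0.33 and 0.0050, Arid5a was too low to test and Arid3c had no count in any library.

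Setd4 encodes a SET domain methyltransferase and had the largest fold change of the tested members. It lies on GRCm38 chromosome 16, 93583457 to 93604063, on the minus strand. It stood at 16.6, 11.3 and 8.35 CPM in atractylodin 1, 2 and 3, against 7.54, 5.07 and 6.31 CPM in vehicle 1, 2 and 3. It rose 2.01-fold (log2 1.01 ± 0.27 SE, adjusted p = 0.0276), while atractylodin 3 lay just above vehicle 1, whose value rested on 14 counts. The call was lost without atractylodin 1 (adjusted p = 0.145) and without any single vehicle library. SETDB1 methylates histone H3 lysine 9 and helps to silence retroelements. Setdb1 had 88.8, 107.7 and 135.9 CPM in the atractylodin libraries, against 127.6, 133.3 and 164.4 CPM in the vehicle libraries, and the groups overlapped (log2 -0.36 ± 0.16 SE, adjusted p = 0.210). It was called lower without atractylodin 3 (adjusted p = 0.0161), without a filter on low counts (adjusted p = 0.0124) and with the replicate number as a block (adjusted p = 0.0394). It overlaps Cers2, a ceramide synthase gene, on the opposite strand, which stood at 236 ± 33.4 CPM with atractylodin and 281 ± 21.1 CPM with vehicle (SD, n = 3 each, adjusted p = 0.157). The other SET domain genes did not pass. Setd2, encoding the trimethylase of histone H3 lysine 36, averaged 77.8 ± 3.99 CPM with atractylodin and 67.1 ± 3.49 CPM with vehicle (SD, n = 3 each, adjusted p = 0.196), with no overlap between groups. Setd3, Setd5, Setd6 and Setd8, which encodes the histone H4 lysine 20 monomethylase now named KMT5A, had log2 fold changes of 0.06, 0.26, 0.05 and -0.05. Setdb2 had -0.35 ± 0.38 (SE) at a few CPM.

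None of the 8 genes of the histone H3 lysine 4 methyltransferase group, which takes in the whole Kmt2 family, passed in edgeR or in DESeq2. Of them 2 had an unadjusted p under 0.05, against 2693 of 12505 over all tested rows. All 8 had TMM-scaled estimates above 0, with a median log2 fold change of 0.18, and 1 estimate was below 0 with total counts as library size and 2 without vehicle 3. The median was 0.10 with total counts and 0.30 without vehicle 2. Kmt2e, whose product has a SET domain without known methyltransferase activity, stood at 201, 157 and 157 CPM in the atractylodin libraries, against 119.5, 150.5 and 139.8 CPM in the vehicle libraries (log2 0.32 ± 0.11 SE, adjusted p = 0.108). Every atractylodin library was above every vehicle library, and Kmt2e was called higher only when low rows were not filtered out (adjusted p = 0.0235). Kmt2c, an enhancer monomethylase gene, averaged 80.9 ± 3.01 CPM with atractylodin and 68.4 ± 1.44 CPM with vehicle (SD, n = 3 each, adjusted p = 0.141), again without overlap. Its paralog Kmt2d averaged 20.6 ± 3.34 and 18.9 ± 3.73 CPM in the same order (adjusted p = 0.761). Kmt2a, Kmt2b, Setd1a and Setd1b had log2 fold changes of 0.15, 0.03, 0.21 and 0.15. Setd7 had 0.64 ± 0.38 (SE, adjusted p = 0.361) and 0.16 without atractylodin 1, with 6.88 CPM in atractylodin 1 and 1.61 to 3.26 CPM in the other 5 libraries.

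The lysine demethylase genes were the largest group and none of the 17 tested was called by edgeR or DESeq2, with 1 unadjusted p under 0.05 (2693 of 12505 over all tested rows). Estimates were above 0 for 14 of them, or 11 with total counts as library size, and the median log2 fold change was 0.13. Kdm7a, encoding a demethylase of histone H3 lysines 9 and 27, gave that p and averaged 29.1 ± 2.27 CPM with atractylodin and 23.6 ± 1.86 CPM with vehicle (SD, n = 3 each, adjusted p = 0.220). The largest estimates were those of Kdm4c (log2 0.52 ± 0.37 SE) and Kdm3b (0.39 ± 0.31 SE), both at a few CPM, and the most negative was that of Kdm8 (-0.46 ± 0.55 SE), which was -0.78 without vehicle 2 and -0.06 without vehicle 3. Kdm6a and Kdm6b, which encode demethylases of histone H3 lysine 27, had log2 fold changes of 0.05 and 0.06. Kdm6b stood at 7.06 ± 0.195 CPM with atractylodin and 6.80 ± 0.310 CPM with vehicle (SD, n = 3 each). Kdm1a, the flavin-dependent demethylase gene LSD1, had -0.04, and Kdm5b, which encodes a demethylase of histone H3 lysine 4, -0.02. Kdm3a, Kdm4b, Kdm1b, Kdm5a, Kdm5d, Kdm2b, Kdm5c and Kdm2a lay between 0.08 and 0.31. Kdm4d and the ISWI ATPase gene Smarca1 were too low to test, and Chd5 had no count in any library. Chd3os, taken by name, stood at 0.908 ± 0.248 CPM with atractylodin and 1.00 ± 0.688 CPM with vehicle (SD, n = 3 each).

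Genes that work with these enzymes but fall outside the rule mostly did not pass. Over all tested rows 3.92% were called higher, and nothing is read from the counts in these lists. Of 21 ISWI partner and NuRD subunit genes 2 rose. Baz1b, encoding a partner of SMARCA5, averaged 125 ± 4.75 CPM with atractylodin and 94.4 ± 3.86 CPM with vehicle (SD, n = 3 each, adjusted p = 0.0112), a call lost without vehicle 1 or vehicle 3. Cecr2, encoding another ISWI partner, averaged 20.9 ± 2.89 and 13.5 ± 1.17 CPM in the same order (adjusted p = 0.0326), a call that only the fit without atractylodin 1 kept among the 6 leave-one-out fits. Hcfc1 was the 1 of 14 COMPASS subunit and accessory genes to rise (adjusted p = 0.0384), the corepressor gene Ncor1 the 1 of 31 acetylation and deacetylation genes (adjusted p = 0.0271), and Rad54l2 the 1 of 12 further SMARCA-like remodeller genes (adjusted p = 0.0347). Hcfc1 and Rad54l2 passed in none of the 6 leave-one-out fits, and Ncor1 passed in 1, that without atractylodin 2. None of these 5 companion rises was called without vehicle 1, and with total counts as library size only that of Baz1b was called.

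A gene fell in 2 of the companion lists, and in 3 with total counts as library size, where Bcl7c and Brd9 of the SWI/SNF list and the deacetylase gene Hdac11 were also called lower. Over all tested rows 3.33% were called lower, and nothing is read from the counts in these lists. Actb, whose product is both cytoskeletal actin and a SWI/SNF subunit, averaged 929 ± 153 CPM with atractylodin and 1350 ± 62.5 CPM with vehicle (SD, n = 3 each, adjusted p = 0.00671) and was the 1 of 15 tested SWI/SNF subunit genes outside the rule to pass. Cbx6, a Polycomb chromobox gene, averaged 12.9 ± 1.05 and 21.9 ± 5.05 CPM in the same order (adjusted p = 0.0252), the 1 of 28 Polycomb genes, and its call was lost without atractylodin 2, vehicle 1 or vehicle 2. No gene passed in edgeR or DESeq2 among 20 INO80 and SRCAP genes, 18 other histone methyltransferase genes, 7 other demethylase genes and 8 DNA methylation genes. In the same order, 1, 3, 1 and 0 had an unadjusted p under 0.05, against 2693 of 12505 over all tested rows. Without vehicle 1, 1 of the 18 other methyltransferase genes was called higher. Median log2 fold changes of these 10 lists lay between -0.04 and 0.15, against 0.15 for the members.

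Marker genes of liver cell types were measured beside these results. Over all tested rows 3.92% were called higher and 3.33% lower. Cholangiocyte markers summed to 21.7 to 28.3 CPM with atractylodin and 41.7 to 51.7 CPM with vehicle, and 2 of 3 tested markers, Sox9 and Spp1, fell (adjusted p = 0.00434 and 0.00288). The 1 other tested marker had an estimate above 0, at a log2 fold change of 0.05. Endothelial markers summed to 407 to 427 CPM with atractylodin and 452 to 470 CPM with vehicle, and 9 of 11 estimates were below 0. In 5 of the 11, every atractylodin library lay below every vehicle library, as in 12.6% of all tested rows. Stab2 fell and Lyve1 rose (adjusted p = 0.0283 and 0.0414), each call held in 1 of the 6 leave-one-out fits, that without atractylodin 1 for Stab2 and without atractylodin 2 for Lyve1. With total counts as library size, Stab2, Eng and Oit3 were called lower and Lyve1 was not called (adjusted p = 0.0651). Krt7 and Krt19 of the cholangiocyte list were too low to test. None of the 13 macrophage, 10 stellate cell, 3 tested lymphocyte, 3 tested neutrophil and 6 tested proliferation markers passed in edgeR or DESeq2. In the same order, 3, 1, 0, 0 and 1 had an unadjusted p under 0.05, against 2693 of 12505 over all tested rows. Of the macrophage estimates 10 were below 0 and 3 above, with a median log2 fold change of -0.26. The 3 macrophage markers at an unadjusted p under 0.05 were all lower with atractylodin. Macrophage markers summed to 329 to 494 CPM with atractylodin and 396 to 559 CPM with vehicle, stellate markers to 404 to 535 and 445 to 541 CPM, lymphocyte markers to 14.6 to 17.6 and 10.2 to 19.8 CPM, and proliferation markers to 22.2 to 27.5 and 22.0 to 27.1 CPM in the same order. Neutrophil markers summed to 1.57 to 23.6 CPM with atractylodin and 6.23 to 8.61 CPM with vehicle, and Mpo had no count in any library. The most counts, not divided by length, were those of Cd5l, Dcn, Ptprc, Pcna, S100a8, Kdr and Sox9 in the macrophage, stellate, lymphocyte, proliferation, neutrophil, endothelial and cholangiocyte lists. Of 10 hepatocyte markers, 6 estimates were above 0 and 4 below. The transcription factor gene Hnf4a rose 1.63-fold (adjusted p = 0.000405), and Ttr was called lower with total counts as library size (adjusted p = 0.0493). The hepatocyte list, with the highest count in Alb, summed to 85146 to 94035 CPM with atractylodin and 88631 to 96688 CPM with vehicle. Of 7 tested erythroid genes, Alas2 fell (adjusted p = 0.000845), while 5 estimates were above 0 and 2 below. The erythroid list, with the highest count in Hba-a1, summed to 1932 to 3779 CPM with atractylodin and 2391 to 3045 CPM with vehicle. The part of these shifts in the values of the members was not tested.

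Nuclear-retained RNAs were followed because several members have long transcripts and genes. Of 6 tested, the long RNA Kcnq1ot1 rose, against 3.92% of all tested rows called higher. It averaged 97.7 ± 1.58 CPM with atractylodin and 74.1 ± 7.34 CPM with vehicle (SD, n = 3 each, adjusted p = 0.0177). The call was lost without vehicle 3 and with total counts as library size (adjusted p = 0.0626). The largest change in the list was that of Airn, an imprinted antisense RNA, at 1.71 ± 0.894 CPM with atractylodin and 3.33 ± 0.322 CPM with vehicle (SD, n = 3 each), with every atractylodin library below every vehicle library (log2 -0.97 ± 0.43 SE, adjusted p = 0.202). Malat1 had a log2 fold change of 0.17 (adjusted p = 0.319) and Neat1 0.08 (adjusted p = 0.817), and Snhg1 and Meg3 had 0.09 and 0.22. The 9 called members had a median gene length of 115 kb and a median transcript GC content of 47.4%, against 46.4 kb and 51.65% for the 53 members that did not pass and 23.6 kb and 49.8% for tested rows outside the family. Setd4, at 20.6 kb and 55.6% GC, was the shortest and the most GC-rich of the 9.

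Fold changes also varied with transcript GC content outside the family. Whether this came from the treatment or from library preparation was not tested. Over 12373 tested rows with an annotated transcript, the Spearman correlation of log2 fold change with GC content was -0.15, and over the 62 members it was -0.39. For gene length it was 0.08 and 0.38. These correlations are across genes of the same 6 libraries, which are not independent replicates. By library, the correlation of a row's deviation from its mean with GC content was -0.06, -0.12 and -0.11 in atractylodin 1, 2 and 3, against 0.08, 0.08 and 0.12 in vehicle 1, 2 and 3. Rows of up to 42% GC had a median log2 fold change of 0.09 and rows above 54% GC one of -0.07. With each library's trend on GC content removed, 8 of the 9 members were still called and Arid4a was not, and the log2 fold changes of Chd1, Smarca5 and Arid4b were 0.49, 0.50 and 0.36. Removing the trend on gene length as well left the same 8. These 2 settings were added after the data were seen. They used the GC content of the whole longest transcript, while QuantSeq reads its 3' end, so the GC content of the reads was not modelled.

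**Figure D4:**
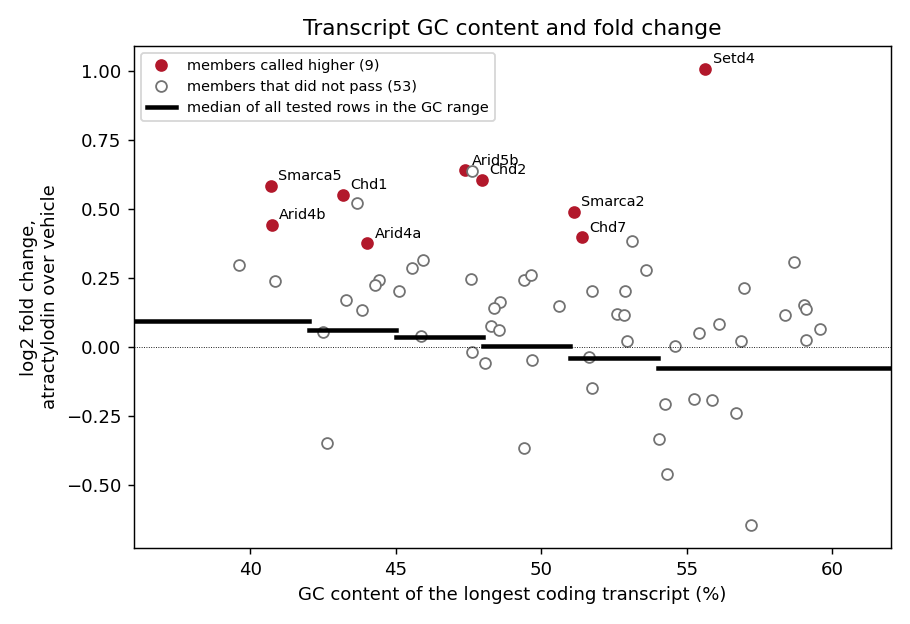
Log2 fold change, atractylodin over vehicle, against GC content of the longest coding transcript for the 62 tested members (filled red, called higher; open, not called), with black lines for the median of all tested rows in each GC range. The line falls from 0.09 at low GC to -0.07 at high GC, and all 9 filled points lie above it.

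**Figure D5:**
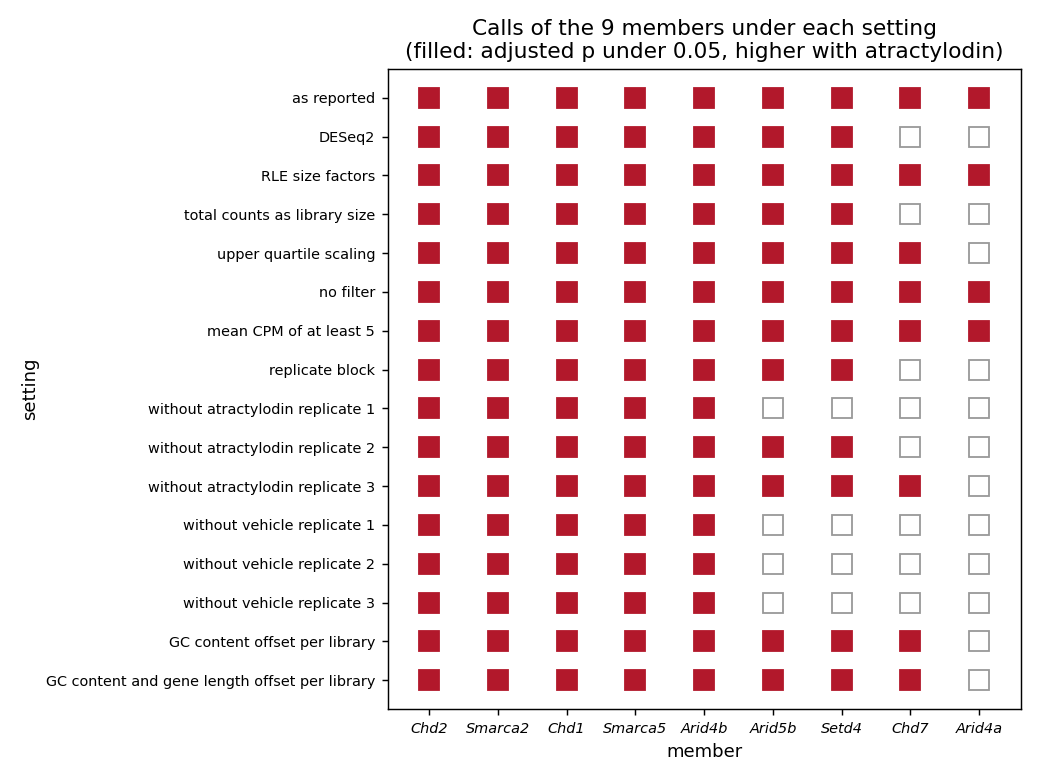
Calls of the 9 members (columns) as reported and under 15 other settings (down the page); a filled square is an adjusted p under 0.05 with a higher level in atractylodin. Chd2, Smarca2, Chd1, Smarca5 and Arid4b are filled in every line, and Arid4a is filled as reported and in 3 of the other settings.

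Chd1, Chd2, Smarca2, Smarca5 and Arid4b were called higher under each of the 15 other settings tried, as the grid of calls shows. Their highest adjusted p-values were those without vehicle 3, at 0.0477, 0.0376, 0.0418, 0.0467 and 0.0479. The other 4 calls depended on which libraries were kept. Those of Chd7 and Arid4a also depended on the method. With all 6 libraries kept, both were lost in DESeq2 (adjusted p = 0.0582 and 0.0904). They were also lost in edgeR with total counts as library size (adjusted p = 0.0860 and 0.126).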

How the data were processed

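Liver RNA (500 ng each) of 6 libraries went into Lexogen QuantSeq 3' kits, per the labels' protocols. What the authors deposited are raw, unscaled counts, 1 row for each symbol. Bowtie2, bedtools and mm10 were used, per the submitters' processing notes. Versions, gene annotation, strand setting and handling of shared reads or molecular identifiers are not given in the sources used here, so floors cover counting error only. No 2 libraries of a group were near copies (chi-square per degree of freedom at least 2.75).

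Members matched the name rule, the Kmt2 genes included although their symbols hold no digit after that stem. The members and lists were chosen with earlier results of these data known. Rows were filtered with filterByExpr, scaled by TMM and tested over all rows with edgeR 4.0.16 (robust quasi-likelihood F-test, R 4.3.3, Benjamini-Hochberg adjustment). SE is the log2 fold change over the square root of F. The test was also run on simulated counts, with larger changes than most reported here and the same spread for every gene. That run therefore does not cover the changes reported. DESeq2 1.42.0 and other scalings, filters, a replicate block and leaving out each library were alternatives, with library-wise lowess offsets on GC content and gene length added later. Named genes were all called members, the 6 with the highest CPM, the 4 largest uncalled changes each way, and called genes of 11 companion and 9 marker lists (lists up to 3 each). Others are named to complete a role, chosen after their values were seen. Positions and lengths are from GENCODE M21 on GRCm38, where all 67 members matched. Figures used matplotlib 3.10.9.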

Additional observations from a re-analysis of the deposited data

How the results depend on the processing

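Counts of calls over all rows, both directions together, and of members kept to within 1.5 times their reported values under DESeq2, the other scalings, both filters, the replicate block and the GC and length offsets, except that 1 member (Setdb1) was called lower without a filter and with the replicate block, where 0 were reported. Leaving out 1 library gave 467 to 751 calls over all rows against 906, 467 without vehicle 3 and 494 without vehicle 1. It gave 5 to 9 called members, 5 to 8 higher and 0 to 1 lower, with 5 without atractylodin 1 or any single vehicle library, and median log2 fold changes of 0.11 to 0.18. With total counts as library size, 312 rows were called higher and 707 lower, against 490 and 416, the members' median was 0.0590 and their summed difference 177 CPM. Without the Kmt2 rows the summed difference was 264 CPM, since fewer rows were summed. The estimate of Chd4 turned to -0.0590 with total counts, -0.00533 without atractylodin 1 and -0.0344 without vehicle 2, and was at most 0.0818, without vehicle 1. The cause of the other changes was not tested. With the replicate block, 7 members were called higher, and Chd7 (adjusted p = 0.0525) and Arid4a (adjusted p = 0.0743) were not. Same-numbered libraries had correlations of -0.04, -0.10 and 0.04 in their deviations, each below the highest correlation with another number. Such low correlations cannot show whether same-numbered libraries shared more than a number. Depth limits members of a few CPM, such as Setd7 and Kdm8 with 3 counts in vehicle 1.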
